A study of Mus musculus with 2 samples.

Results

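Inward rectifier potassium channels pass potassium ions more easily into the cell than out of it, and so hold the resting potential of heart muscle cells near the potassium equilibrium. The group described here is made of 8 genes, taken by symbol from the deposited table of 31920 gene symbols. They are the 6 pore-forming subunit genes Kcnj2, Kcnj12, Kcnj3, Kcnj5, Kcnj11 and Kcnj8 and the sulfonylurea receptor genes Abcc9 and Abcc8. All 8 had a row in the table, and all 8 had at least 5 reads per 1000000 reads assigned to genes (RPM) in the higher library, as had 10209 genes in all, called measured genes below.

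The data are read counts of polyadenylated RNA from the cardiac left ventricle of mice. One group was a Lamp2 knockout male and the other a Wildtype male, both of the 129-SvEv strain and both 10 weeks old, with 1 library per group. LAMP2 is a membrane protein of lysosomes, and the series is about heart muscle disease after its loss. The labels do not describe the allele. Because each group was 1 library, no difference below has a replicate check and no p-value is given, and the 95% intervals cover counting error only.

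Reads assigned to genes numbered 8773820 in the Lamp2 knockout library and 8410593 in wildtype. Lamp2 itself had 986 reads in the Lamp2 knockout library and 990 in the wildtype library, a ratio of 0.955 (95% interval 0.873 to 1.04), so a count over the whole gene does not check the genotype label. Every direction below is that of the library labelled Lamp2 knockout. Markers of heart muscle were abundant in both libraries. Myh6, which encodes the motor protein of adult mouse heart muscle, was at 18405 RPM in the Lamp2 knockout library and 19313 RPM in wildtype. The ventricular marker Myl2 was at 8322 and 8818 RPM in the same order. Transcripts of the mitochondrial genome made up 16.2% of reads in the Lamp2 knockout library and 26.5% in wildtype, which moves the RPM of every other gene.

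By function the 8 genes fall into 3 kinds of channel. The Kir2 channels, of which the heart's main subunits are the products of Kcnj2 (Kir2.1) and Kcnj12 (Kir2.2), carry the cardiac inward rectifier current IK1, which sets the resting potential and shapes the last phase of repolarization. The products of Kcnj3 and Kcnj5 (GIRK1 and GIRK4) assemble into the channel that opens when acetylcholine acts on muscarinic receptors through G protein βγ subunits, a current best known from the atria and the sinus node. KATP channels join a pore subunit, Kir6.2 from Kcnj11 or Kir6.1 from Kcnj8, with a sulfonylurea receptor, SUR2 from Abcc9 or SUR1 from Abcc8. They are shut by ATP and open when cell energy falls.

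The pore subunits carry a potassium channel signature, the stretch that lines the selectivity filter of the pore. In it, the codon TAT (tyrosine) of Kcnj2, Kcnj3 and Kcnj5 is TTT (phenylalanine) in Kcnj8. The coding strand around it is shown for 4 of the 6 pore genes because it shows both how alike the family is and where its members can be told apart by sequencing. Each line is 60 bases of coding exon, read 5′ to 3′ from GENCODE M21 transcripts on the GRCm38 build, with the 15 bases of the signature in capitals.
Kcnj2 (chr11:111072183-111072242, plus strand): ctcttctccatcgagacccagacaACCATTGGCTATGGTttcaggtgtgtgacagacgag
Kcnj3 (chr2:55437603-55437662, plus strand): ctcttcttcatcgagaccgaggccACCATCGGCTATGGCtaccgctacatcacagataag
Kcnj5 (chr9:32322538-32322597, minus strand): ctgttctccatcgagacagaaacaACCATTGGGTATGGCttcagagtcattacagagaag
Kcnj8 (chr6:142566427-142566486, minus strand): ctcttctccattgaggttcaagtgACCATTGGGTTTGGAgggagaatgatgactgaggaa

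In this window Kcnj2 and Kcnj5 had 46 identical bases, the most among these 4 genes, and Kcnj3 and Kcnj8 had 34, the fewest. Over the whole aligned coding sequence, Kcnj3 and Kcnj5 were 67.0% identical, the closest pair of the 4, and Kcnj2 and Kcnj8 were 61.0% identical, the most distant. The longest identical run between any 2 of the 4 coding sequences was 18 bases. No stretch of 50 bases was shared between transcripts of any 2 of the 8 genes, so a read of that length can be assigned to 1 of them. The read length is not given in the sources used here.

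All but 1 of the 8 genes had lower RPM in the Lamp2 knockout library than in wildtype, and 2 of them, Kcnj2 and Kcnj3, were at least 2-fold lower. A gene is called 2-fold apart here when log2((Lamp2 knockout RPM + 1)/(wildtype RPM + 1)) is at least 1 in size. Among all measured genes, 2.37% were at least 2-fold lower by this rule and 3.35% at least 2-fold higher; 0 of the 8 channel genes were at least 2-fold higher. A log2 ratio below 0 was found for 7 of the 8 genes and for 38.8% of measured genes. Over the 8 the log2 ratio had a median of −0.41, against 0.11 over all measured genes. Summed over the 8 genes, reads came to 449.5 RPM in the Lamp2 knockout library and 550.5 RPM in wildtype, a ratio of 0.817 (0.782 to 0.852).

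**Figure D1:**
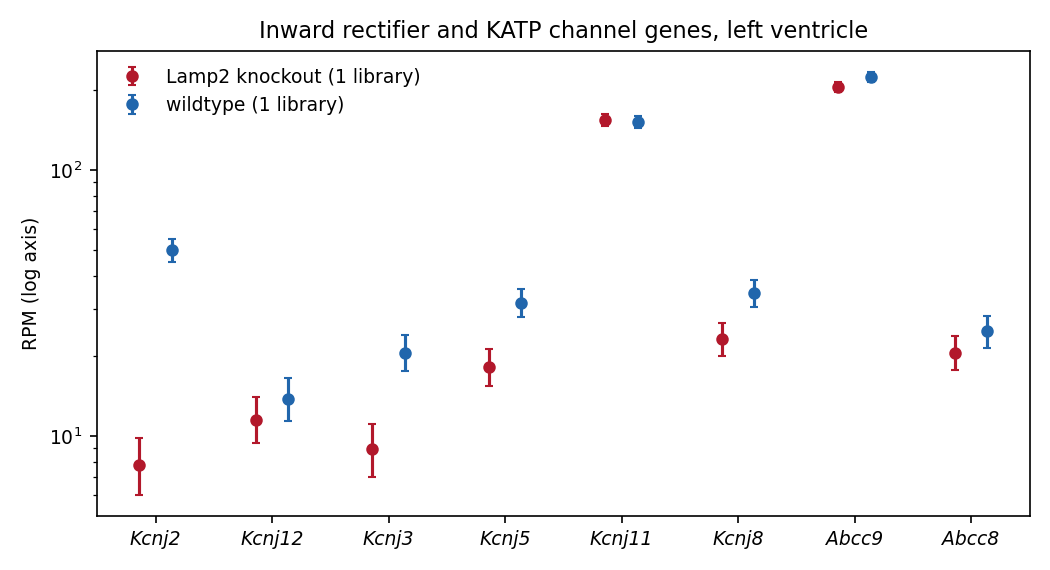
Points give the RPM of each of the 8 genes (log axis) in the Lamp2 knockout library (red) and the wildtype library (blue), and bars are exact 95% Poisson intervals for counting error, with 1 library per group. Kcnj2 stands at 7.75 RPM in the Lamp2 knockout library and 49.8 RPM in wildtype, while the points of Kcnj11 nearly coincide at 154 and 152 RPM.

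Kcnj2 had the largest difference of the 8. Its row, on the plus strand of chromosome 11 from 111066164 to 111076825 in the mm10 build, held 68 reads in the Lamp2 knockout library and 419 in wildtype. These counts correspond to 7.75 RPM (6.02 to 9.83) and 49.8 RPM (45.2 to 54.8), a ratio of 0.156 (0.119 to 0.201) and a log2 ratio of −2.54. The interval of the ratio lay below 1, as it did for 16.8% of measured genes. Ranked by log2 ratio, Kcnj2 was number 5 from the lowest of the 10209 measured genes. The ratio was 0.136 to 0.143 under 3 other scalings of the libraries, by the median ratio of measured genes, by a trimmed mean of log ratios, and by the total without mitochondrial rows and the 10 most abundant genes.

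Kcnj12, the other Kir2 gene of the group, did not share the size of that difference. It had 101 reads in the Lamp2 knockout library and 116 in wildtype, or 11.5 and 13.8 RPM. Its ratio of 0.835 (0.633 to 1.10) included 1 on the deposited scale. It excluded 1 when scaled by the total without mitochondrial rows and the 10 most abundant genes, at 0.729 (0.552 to 0.960). Of the reads of Kcnj2 and Kcnj12 together, Kcnj2 took 40.2% (exact binomial interval 32.8 to 48.0) in the Lamp2 knockout library and 78.3% (74.6 to 81.7) in wildtype. This share is taken within each library and does not depend on how the libraries are scaled. Divided by exonic length, Kcnj2 was 25.4% of this pair in the Lamp2 knockout library and 64.6% in wildtype, so Kcnj12 was the more abundant of the pair in the Lamp2 knockout library and Kcnj2 in wildtype.

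Kcnj2 lies alone in the annotation, with no exon of another gene on either strand over its own exons. The 250 bases before its annotated start are printed because the start of the deposited row and the RefSeq start coincide there. The same holds for Abcc9, a gene of the group with a ratio of 0.918 on the deposited scale, shown beside it. Sequences are from RefSeq on the GRCm38.p6 build, 5′ to 3′ on the strand of the gene, with capitals marking the GC box GGGCGG and the MCAT motif CATTCC on either strand.
Kcnj2 (chr11:111065914-111066163, plus strand): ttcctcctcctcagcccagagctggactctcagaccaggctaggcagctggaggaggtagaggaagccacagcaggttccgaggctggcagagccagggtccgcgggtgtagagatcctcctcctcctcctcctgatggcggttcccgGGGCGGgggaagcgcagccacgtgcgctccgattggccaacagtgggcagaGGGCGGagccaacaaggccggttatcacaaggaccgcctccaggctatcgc
Abcc9 (chr6:142702275-142702524, minus strand): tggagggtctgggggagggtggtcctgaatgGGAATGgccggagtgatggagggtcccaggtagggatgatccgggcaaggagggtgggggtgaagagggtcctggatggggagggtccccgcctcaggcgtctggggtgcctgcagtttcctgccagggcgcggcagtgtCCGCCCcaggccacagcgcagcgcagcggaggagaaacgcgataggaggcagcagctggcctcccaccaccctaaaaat

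Both windows were rich in G and C, at 65.6% for Kcnj2 and 66.8% for Abcc9, against a median of 52.4% over all promoters of that length in the table. The window of Kcnj2 held 2 matches to the GC box and that of Abcc9 held 1, and 33.0% of 32536 promoters held at least 1. Abcc9 also had 1 match to the MCAT motif, found in 12.6% of promoters. Neither window held the TATA box TATAAA, the GATA motif AGATAA or the forkhead motif TGTTTAC, which were in 12.3%, 9.97% and 3.17% of promoters. Of the 8 genes, 6 matched a promoter in the RefSeq table. Kcnj11 and Abcc8 were not matched.

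The measured gene outside the channel lists whose pair of levels was nearest to that of Kcnj2 was Gdpd3. Likeness was the distance between log2(RPM + 1) values over the 2 libraries, 0.42 for Gdpd3. Gdpd3, a lysophospholipase D family gene, was at 10.1 RPM in the Lamp2 knockout library and 42.1 RPM in wildtype. With 2 libraries this likeness reduces to a similar level and a similar ratio.

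**Figure D2:**
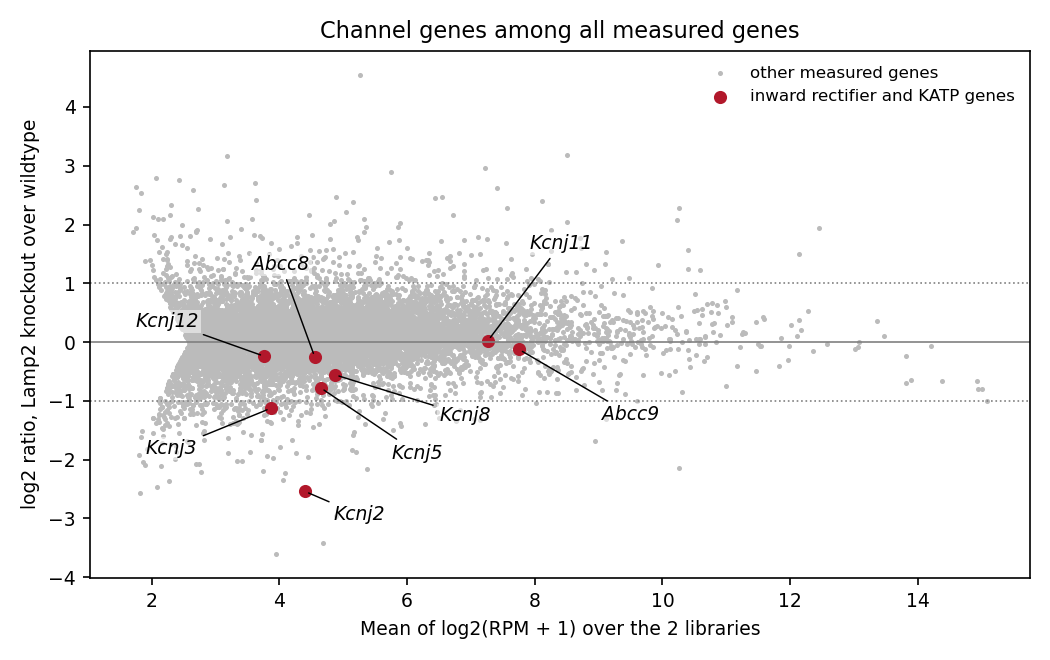
Each grey point is 1 of the measured genes, placed by its mean log2(RPM + 1) over both libraries and its log2 ratio of Lamp2 knockout over wildtype, and red points are the 8 channel genes. Dotted lines mark 2-fold; Kcnj2 at −2.54 and Kcnj3 at −1.12 lie under the lower line, and Kcnj11 at 0.02 lies on the line of no difference.

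Both genes of the acetylcholine-activated channel were lower in the Lamp2 knockout library. Kcnj3 (chromosome 2, 55436781 to 55595525, plus strand) had 78 reads in the Lamp2 knockout library and 173 in wildtype, or 8.89 RPM (7.03 to 11.1) and 20.6 RPM (17.6 to 23.9). The ratio was 0.432 (0.326 to 0.568), with a log2 ratio of −1.12, close to the 2-fold line. Kcnj5 (chromosome 9, 32314783 to 32344237, minus strand) had 159 reads in the Lamp2 knockout library and 267 in wildtype, or 18.1 RPM (15.4 to 21.2) and 31.7 RPM (28.1 to 35.8). Its ratio of 0.571 (0.466 to 0.697) excluded 1 and did not reach 2-fold, at a log2 ratio of −0.78. Intervals of the ratio lay below 1 for both genes and for 16.8% of measured genes.

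The share of Kcnj3 among the reads of the pair was 32.9% (27.0 to 39.3) in the Lamp2 knockout library and 39.3% (34.7 to 44.1) in wildtype, and these intervals overlap. The ratios of Kcnj3 and Kcnj5 therefore could not be told apart at this depth. An annotated RNA on the opposite strand, Gm26794, overlaps 1080 bases of Kcnj3 exon inside the deposited row. No source used here says that strand was used in counting, and without it reads of Kcnj3 and of that RNA cannot be told apart there. Measured genes nearest to Kcnj3 in level and ratio were Bcl2l11, which encodes the cell death protein BIM, at 9.35 RPM in the Lamp2 knockout library and 20.7 RPM in wildtype, and the peroxidasin gene Pxdn at 8.89 and 21.6 RPM in the same order. Their distances were 0.07 each.

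Because Kcnj3 and Kcnj5 are also genes of atrial and conduction tissue, the markers of those cells are given beside them. These low markers were singled out after their values were seen. Among 6 atrial markers, 2 were measured: Nppa, which the stressed ventricle also makes, and Dkk3, both at least 2-fold higher in the Lamp2 knockout library. Of the remaining atrial markers, the atrial light chain gene Myl7 had 4 reads in the Lamp2 knockout library and 19 in wildtype, its relative Myl4 had 12 and 18, the calcium pump regulator gene Sln had 1 and 5, and Bmp10 had 0 in both. Each had under 3 RPM in each library. The summed level of the 6 was 10998 RPM in the Lamp2 knockout library and 2876 RPM in wildtype, nearly all of it Nppa.

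Among 10 conduction system markers, 4 were measured and 1 was at least 2-fold lower, the connexin 40 gene Gja5, at 1.48 RPM in the Lamp2 knockout library and 7.13 RPM in wildtype, a ratio of 0.208 (0.105 to 0.383). The pacemaker channel gene Hcn4 had 12 reads in the Lamp2 knockout library and 32 in wildtype, and the Purkinje cell marker Cntn2 had 4 and 16. The T-box gene Tbx3 and the homeobox gene Irx3 differed less, with ratios of 0.828 (0.716 to 0.957) and 1.05 (0.917 to 1.21). Summed, the 10 stood at 127 RPM in the Lamp2 knockout library and 139 RPM in wildtype, and Isl1 was at 0 reads in both. The part of atrial or conduction tissue in the levels of Kcnj3 and Kcnj5 was not tested, and in bulk tissue fewer cells of a type and less RNA per cell cannot be told apart.

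**Figure D3:**
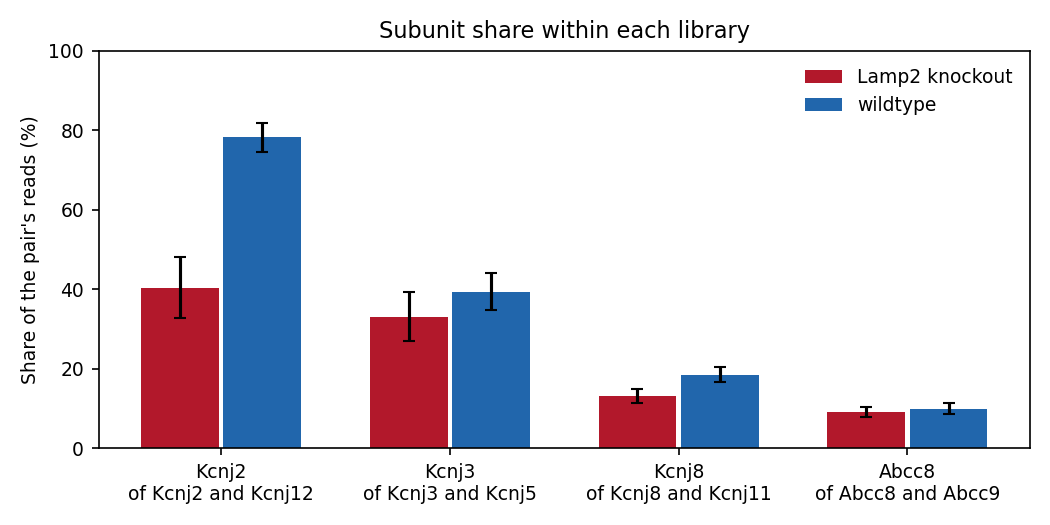
Bars give the share of 1 subunit among the reads of its subunit pair within each library, Lamp2 knockout in red and wildtype in blue, with exact binomial 95% intervals as error bars. The share of Kcnj2 among reads of Kcnj2 and Kcnj12 is 40.2% in the Lamp2 knockout library and 78.3% in wildtype, and the share of Abcc8 among sulfonylurea receptor reads is 9.08% and 9.96% in the same order.

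The genes of the KATP channel of heart muscle, Kcnj11 and Abcc9, differed little between the libraries on the deposited scale. SUR2 from Abcc9 can also join Kir6.1, and in bulk tissue reads of Abcc9 cannot be assigned to a cell type. Kcnj11 (chromosome 7, 46097123 to 46100764, minus strand) had 1353 reads in the Lamp2 knockout library and 1276 in wildtype, or 154 RPM (146 to 163) and 152 RPM (144 to 160). Its ratio of 1.02 (0.941 to 1.10) included 1, and it was the only one of the 8 with a log2 ratio above 0. That sign did not hold under the other scalings, with ratios of 0.887 to 0.937. With the total without mitochondrial rows and the 10 most abundant genes, the Kcnj11 interval of 0.821 to 0.959 lay below 1. Abcc9 (chromosome 6, 142587862 to 142702274, minus strand) had 1802 reads in the Lamp2 knockout library and 1881 in wildtype, or 205 RPM (196 to 215) and 224 RPM (214 to 234). Its ratio of 0.918 (0.860 to 0.980) excluded 1 by a narrow margin. Under each of the other scalings the Abcc9 interval lay further below 1, with ratios of 0.802 to 0.847. The opposite-strand row 5330439B14Rik, with 71 reads in the Lamp2 knockout library and 67 in wildtype, overlaps 158 exonic bases of Abcc9.

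Kcnj8, whose product Kir6.1 forms the KATP channel of vascular smooth muscle and pericytes, was lower. Its row on chromosome 6, from 142564839 to 142571356 on the minus strand, held 203 reads in the Lamp2 knockout library and 290 in wildtype. These are 23.1 RPM (20.1 to 26.5) and 34.5 RPM (30.6 to 38.7), a ratio of 0.671 (0.558 to 0.806) and a log2 ratio of −0.56. Of the reads of both KATP pore genes, Kcnj8 took 13.0% (11.4 to 14.8) in the Lamp2 knockout library and 18.5% (16.6 to 20.5) in wildtype, and these intervals do not overlap.

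Abcc8, whose product SUR1 is the receptor of the pancreatic beta cell and of mouse atrial muscle, had 180 reads in the Lamp2 knockout library and 208 in wildtype. It was at 20.5 and 24.7 RPM in that order, with a ratio of 0.830 (0.676 to 1.02) that included 1. Under each of the other scalings its interval lay below 1, with ratios of 0.724 to 0.765. Its row spans 46104523 to 46180033 on the minus strand of chromosome 7. Abcc8 took 9.08% (7.85 to 10.4) of sulfonylurea receptor reads in the Lamp2 knockout library and 9.96% (8.71 to 11.3) in wildtype, so the receptor makeup did not differ beyond counting error.

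The KATP genes lie as 2 neighbour pairs of 1 pore and 1 receptor gene each. The rows of Kcnj11 and Abcc8 are 3758 bases apart on chromosome 7, and those of Kcnj8 and Abcc9 are 16505 bases apart on chromosome 6. The ratios were 1.02 for Kcnj11 and 0.830 for its neighbour Abcc8, and 0.671 for Kcnj8 and 0.918 for its neighbour Abcc9. The interval of Kcnj8 did not overlap that of Abcc9.

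Markers of vascular smooth muscle and pericytes, the cells in which Kcnj8 is best known, are given beside it. Of 11 such markers, 10 were measured, 3 with a log2 ratio above 0 and 7 below, and none was 2-fold apart. Their median was −0.21, against 0.11 over all measured genes, of which 38.8% had a log2 ratio below 0. Their summed level was 792 RPM in the Lamp2 knockout library and 865 RPM in wildtype. Rgs5, a pericyte regulator of G protein signalling, had a ratio of 0.931 (0.896 to 0.969), and the receptor gene Pdgfrb had a ratio of 0.972 (0.864 to 1.09). The smooth muscle genes Acta2, Tagln and Myh11 were lower, at 0.714 (0.621 to 0.820), 0.597 (0.426 to 0.830) and 0.729 (0.582 to 0.911). They are named because of their low values. Mcam, among the 3 with a log2 ratio above 0, was at 1.01 (0.791 to 1.29). The pericyte gene Higd1b was at 3.31 RPM in the Lamp2 knockout library and 6.06 RPM in wildtype, and the proteoglycan gene Cspg4 at 25.6 and 15.7 RPM in the same order. The part of mural cell number in the level of Kcnj8 was not tested.

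**Figure D4:**
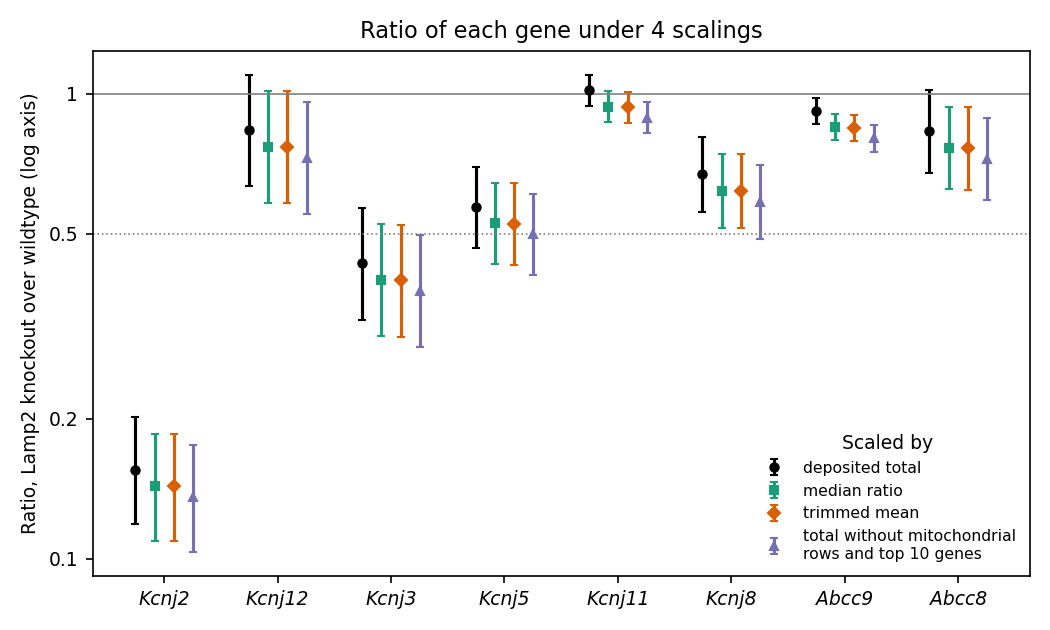
Points are ratios of Lamp2 knockout over wildtype (log axis) for each gene under 4 scalings of the libraries, and bars are exact 95% counting intervals; the solid line marks 1 and the dotted line 0.5. Kcnj2 lies between 0.136 and 0.156 under all 4, and Kcnj11 lies between 0.887 and 1.02.

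Counting intervals of the ratio lay wholly below 1 for 5 of the 8 genes, Kcnj2, Kcnj3, Kcnj5, Kcnj8 and Abcc9, and for 16.8% of measured genes. They lay wholly above 1 for 0 of the 8 and for 35.0% of measured genes. Scaled by the median ratio, the interval lay below 1 for 6 of the 8 genes and 24.1% of measured genes, and by a trimmed mean of log ratios for 6 and 24.3%. Scaled by the total without mitochondrial rows and the 10 most abundant genes, it lay below 1 for 8 of the 8 and 30.3% of measured genes.

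Levels of different genes can be compared only per length, so RPM were divided by the kilobases of merged exons. On this scale the order in the Lamp2 knockout library was Kcnj11 at 41.9 RPM per kilobase, Abcc9 at 24.5, Kcnj8 at 9.08, Kcnj12 at 4.19, Kcnj5 at 3.87, Abcc8 at 2.54, Kcnj3 at 1.70 and Kcnj2 at 1.42. In the wildtype library it was Kcnj11 at 41.3, Abcc9 at 26.7, Kcnj8 at 13.5, Kcnj2 at 9.15, Kcnj5 at 6.78, Kcnj12 at 5.02, Kcnj3 at 3.94 and Abcc8 at 3.06. The 3 most abundant genes, all of the KATP channel, kept their order. Kcnj2 was number 8 in the Lamp2 knockout library and number 4 in wildtype. In the Lamp2 knockout library the intervals overlapped for the neighbours Kcnj12 and Kcnj5 and for Kcnj3 and Kcnj2. In wildtype they overlapped for Kcnj5 and Kcnj12, for Kcnj12 and Kcnj3, and for Kcnj3 and Abcc8. With the longest transcript as the length, Abcc8 stood above Kcnj5 in the Lamp2 knockout library, as number 5, and above Kcnj3 in wildtype, as number 7. For Kcnj3 the exonic length includes bases outside the deposited row, where only 1080 of the 1621 exon bases overlapped by Gm26794 lie inside it. If reads were counted only inside the row, the level of Kcnj3 per length is understated in both libraries.

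**Figure D5:**
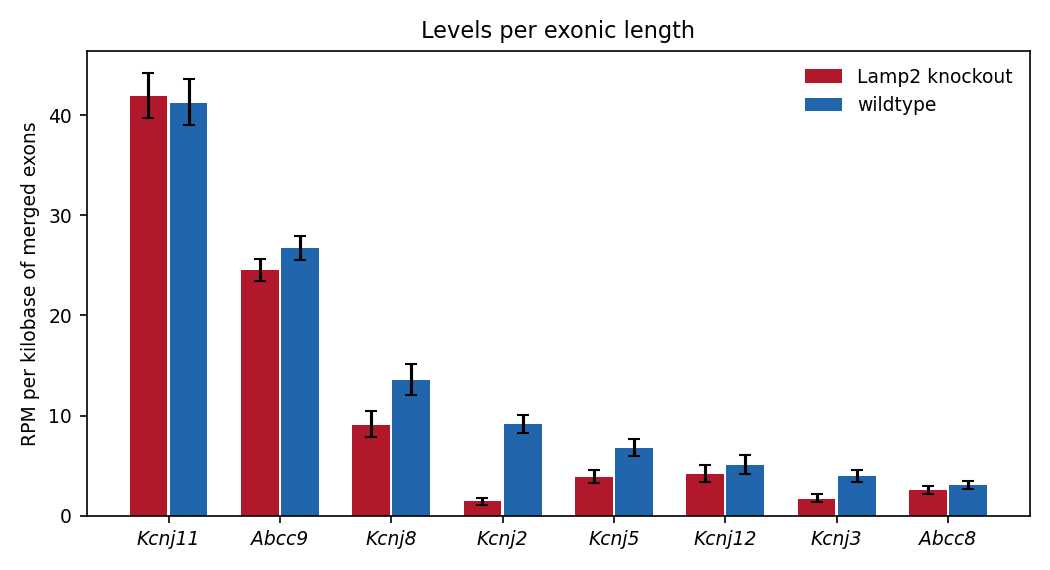
Bars give RPM per kilobase of merged exons in the Lamp2 knockout library (red) and the wildtype library (blue), ordered by the wildtype level, with exact 95% Poisson intervals. Kcnj11 is the highest in both libraries, at 41.9 and 41.3, and Kcnj2 is at 1.42 in the Lamp2 knockout library and 9.15 in wildtype.

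Summed per length, the KATP pore genes Kcnj11 and Kcnj8 stood at 51.0 RPM per kilobase in the Lamp2 knockout library and 54.8 in wildtype, and the receptor genes Abcc9 and Abcc8 at 27.1 and 29.8 in the same order. The pore sum divided by the receptor sum was thus 1.89 in the Lamp2 knockout library and 1.84 in wildtype. With the longest transcript as the length, it was 1.84 and 1.77 in the same order. Kcnj2 and Kcnj12 summed to 5.61 RPM per kilobase in the Lamp2 knockout library and 14.2 in wildtype. The genes of the acetylcholine-activated channel summed to 5.57 and 10.7 in the same order, with the limit given above for the length of Kcnj3. The KATP pore sum divided by the sum of Kcnj2 and Kcnj12 was 9.09 in the Lamp2 knockout library and 3.87 in wildtype. With the longest transcript as the length, it was 9.54 and 4.19 in the same order. These are ratios of reads per length, not counts of molecules, and the annotation used in counting is not given.

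The other 9 genes of the inward rectifier family were low or at 0. Only Kcnj14 (Kir2.4), which is not in the sums and shares of Kcnj2 and Kcnj12 above, was measured. It had 81 reads in the Lamp2 knockout library and 105 in wildtype, or 9.23 and 12.5 RPM, with a ratio of 0.739 (0.546 to 0.998). Kcnj4, the remaining Kir2 gene, had 16 reads in the Lamp2 knockout library and 11 in wildtype. Kcnj10 had 9 reads and 1 read in the same order, and Kcnj6, Kcnj9, Kcnj13 and Kcnj15 had at most 5 reads in either library. Kcnj1 and Kcnj16 had 0 reads in both. The floor of 3 reads set for a count of 0 corresponds to 0.342 RPM in the Lamp2 knockout library and 0.357 RPM in wildtype. Kcnj16 is encoded beside Kcnj2 on chromosome 11.

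Among 13 two-pore potassium channel genes, which carry background current alongside IK1, Kcnk3 (TASK-1) was the only one measured. It was at 492 RPM in the Lamp2 knockout library and 799 RPM in wildtype, with a ratio of 0.616 (0.593 to 0.640), short of 2-fold. Among 8 other genes of the ABCC family, which are transporters and the nearest relatives of the sulfonylurea receptors, 4 were measured, Abcc1, Abcc3, Abcc4 and Abcc5, all 4 with a log2 ratio above 0 and none 2-fold apart. Their median was 0.40, against 0.11 over all measured genes, of which 6252 of 10209 had a log2 ratio above 0. Abcc3 was at 5.93 RPM in the Lamp2 knockout library and 2.85 RPM in wildtype. Abcc5 had a ratio of 1.37 (1.11 to 1.69).

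The list of receptors, G proteins and their regulators that act on the Kcnj3 and Kcnj5 channel was near the median of all genes. Of 16 measured genes of 18, 9 had a log2 ratio above 0 and 7 below, with a median of 0.13. Over all measured genes, 6252 lay above 0 and 3957 below. The muscarinic receptor gene Chrm2, singled out after its value was seen, was at 55.1 RPM in the Lamp2 knockout library and 53.3 RPM in wildtype, a ratio of 1.03 (0.907 to 1.18). The 1 gene at least 2-fold apart was Rgs6, whose product shortens the G protein signal to this channel, at 2.85 RPM in the Lamp2 knockout library and 7.37 RPM in wildtype. Its ratio was 0.387 (0.233 to 0.624). Rgs4, of the same family, had a ratio of 0.486 (0.320 to 0.727) and a log2 ratio of −0.90. The G protein γ subunit genes Gng2 and Gng5 had ratios of 2.23 (1.41 to 3.60) and 1.39 (1.20 to 1.63).

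Inward rectifiers need the membrane lipid phosphatidylinositol 4,5-bisphosphate for their activity. Of 11 genes for its synthesis, 10 were measured, 6 with a log2 ratio above 0, and none was 2-fold apart, with a median of 0.11, equal to that of all measured genes at this rounding. The largest ratios in size were those of the lipid kinase genes Pi4k2a at 1.84 (1.52 to 2.24), Pip5k1c at 1.59 (1.41 to 1.80) and Pi4ka at 1.40 (1.19 to 1.64) and of the inositol lipid synthase gene Cdipt at 1.31 (1.08 to 1.59). Of 10 phospholipases C, which split this lipid, 8 were measured, 6 lay above 0, with a median of 0.29. Beside both lists, 6252 of the 10209 measured genes lay above 0. Plcd3 had a ratio of 1.70 (1.39 to 2.08), and Plce1, Plcg2 and Plcg1 had ratios of 1.40, 1.41 and 1.26.

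Proteins that anchor or move these channels were near the median of all genes as a list. Of 23 such genes 16 were measured, 10 had a log2 ratio above 0, and none was 2-fold apart, with a median of 0.16. Among all 10209 measured genes, 6252 lay above 0. The muscle caveolin gene Cav3 had a ratio of 1.41 (1.25 to 1.60). Ank2, which encodes ankyrin-B, a partner of Kir6.2, was at 84.0 RPM in the Lamp2 knockout library and 121 RPM in wildtype, and the membrane traffic gene Ehd2 at 55.5 and 78.5 RPM in the same order.

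Of 15 genes for enzymes and kinases tied to KATP gating, all measured, 10 lay above a log2 ratio of 0, with a median of 0.11. So did 6252 of all 10209 measured genes, whose median was also 0.11. Adenylate kinase 1, which passes adenine nucleotide signals to the channel, was lower: Ak1 had a ratio of 0.692 (0.672 to 0.713). The kinase gene Prkg1 had a ratio of 1.95 (1.49 to 2.57) and the lactate dehydrogenase gene Ldha a ratio of 1.61. Gapdh was the 1 gene at least 2-fold apart, at a ratio of 2.34 (2.13 to 2.57), and many processed copies of it in the genome can take or give reads.

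Marker lists of the remaining cell types differed in both directions. The list for ventricular muscle, a cell type with channels of Kcnj2 and Kcnj11, had a median of −0.07 over 14 measured genes. Its summed level was 68002 RPM in the Lamp2 knockout library and 68208 RPM in wildtype. Of its genes 6 had a log2 ratio above 0 and 8 below, against 38.8% of measured genes below, and none was 2-fold apart. Csrp3 and Ryr2 had its largest ratios at 1.85 and 1.42, Tnnt2 a ratio of 1.08 and Myh6 a ratio of 0.953. Actc1, singled out after its value was seen, had the lowest at 0.711 (0.698 to 0.724). Endothelial markers had a median of 0.11 over 11 genes, with Cdh5 and Eng at ratios of 0.966 and 0.784 and Flt1 and Tek at 1.58 and 0.626. Their summed level was 963 RPM in the Lamp2 knockout library and 918 RPM in wildtype.

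Fibroblast markers had a median of −0.80 over 9 genes, 4 of them at least 2-fold lower, among them Col3a1 at a ratio of 0.175 (0.130 to 0.234) and Col1a1 at 0.228, while Dcn and Pdgfra were at 1.04 and 0.982. The 9 summed to 516 RPM in the Lamp2 knockout library and 602 RPM in wildtype. Macrophage markers had a median of 0.86 over 5 measured genes, with C1qb and C1qa at ratios of 2.64 and 2.18. The other measured ones were Cd68 at 1.99, Csf1r at 1.20 and Mrc1 at 1.02 (0.783 to 1.32). Too low to be measured, Fcgr1 had 0 reads in the Lamp2 knockout library and 9 in wildtype, and Ptprc had 12 and 15. Macrophage markers summed to 261 RPM in the Lamp2 knockout library and 132 RPM in wildtype. Skeletal muscle markers, 2 of 9 measured, Myh1 and Myh2, had ratios of 1.09 and 0.978, and summed to 38.5 RPM in the Lamp2 knockout library and 39.5 RPM in wildtype. No nerve or Schwann cell marker of 8 was measured, and they summed to 3.76 RPM in the Lamp2 knockout library and 3.69 RPM in wildtype. The part of these cell types in the levels of the 8 channel genes was not tested.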

How the data were processed

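The authors deposited 1 table covering both libraries, with whole-number read counts for each gene per the file headers. The deposited RPM values equal count divided by library total, times 1000000, within 5e-05. The deposited table also has the authors' fold (a ratio) and p-value, neither of them used. The submitters' processing notes name STAR and 2 names of 1 build, mm10 and GRCm38. Which counter, strand setting and annotation were used is not given in the sources used here, and no read length is stated.

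The 8 genes and the 17 lists of other genes were chosen with earlier results of these data known. A gene was measured at 5 RPM or more in the higher library and called at a log2 ratio of at least 1 in size, with a pseudocount of 1 RPM, which understates differences of low genes. With 1 library per group no test was made. Ratios of RPM carry no pseudocount and have exact conditional binomial 95% intervals; levels have exact Poisson and shares exact binomial (Clopper-Pearson) intervals. All of them cover counting error only, since reads counted without molecular identifiers need not be separate molecules. Named genes are the 8, up to 4 of each list by size of log2 ratio, up to 4 of each marker list by size or abundance, and the nearest genes to Kcnj2 and Kcnj3; others named are family members, or genes given as markers or chosen after their values were seen. Some genes the rule names are not reported here. The calculation was tested on simulated data. Deposited starts count from 0 and are given plus 1. Lengths are from GENCODE M21. Python 3.11.15, numpy 2.4.6, pandas 2.3.3, scipy 1.17.1 and Biopython 1.88 were used. Alternatives were other pseudocounts, minimums, ratios, scalings and lengths.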

Additional observations from a re-analysis of the deposited data

How the results depend on the processing

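No paired analysis was possible because each group held 1 library. For the same reason no library could be left out, and the precision of each ratio is set by its reads, from 68 for Kcnj2 to 1881 for Abcc9. Kcnj2 was at least 2-fold lower under all 10 alternatives of pseudocount, minimum, call ratio and scaling, with log2 ratios of −2.10 to −2.72. Kcnj3 lost its call with a pseudocount of 5 RPM, at a log2 ratio of −0.88, and when a ratio of 3 was required. The number of channel genes called lower was 1 in these cases, and no channel gene was called higher under any alternative. Among all measured genes the count higher was 194 with a pseudocount of 5 RPM, 220 with a minimum of 20 RPM, 1307 and 87 at call ratios of 1.5 and 3, and 217 with the total without mitochondrial rows and the 10 most abundant genes. The count lower was 75, 92, 745, 46 and 381 in the same settings, and 397 with a minimum of 1 RPM or no filter. The scalings shift log2 ratios without a pseudocount by 0.12, 0.12 and 0.20, and those with the pseudocount by less for low genes. With them all 8 channel genes had a log2 ratio below 0, as had 50.01%, 50.2% and 57.1% of measured genes. Dividing by the longest transcript in place of merged exons put Abcc8 at 4.21 RPM per kilobase in the Lamp2 knockout library and 5.07 in wildtype, which raised its place by 1 in each library.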
